A study of Arabidopsis thaliana with 96 samples.

Results

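At 8 h of salt, 71 Arabidopsis root genes were at least 1 log2 unit (2-fold) above standard medium in 1 cell type and at least 1 log2 unit below it in another, and these genes are described here. They were picked from 13356 genes with a probe set of their own (the probe set with the highest mean where a gene had several), by the change at 8 h, that is the mean of the 3 salt arrays minus the mean of the 2 standard group means of the same cell type. The comparison asks which genes respond to salt in opposite directions in different tissues of the root. All values at 8 h against standard medium therefore chose the genes and are given as a description with no test.

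The samples were cells of Columbia seedling roots, harvested 5 to 7 days after germination, turned into protoplasts and sorted by a green fluorescent protein reporter: WER::GFP for the epidermis, COR::GFP for the cortex, SCR::GFP for the endodermis and WOL::GFP for the stele, the vascular core. Every type was profiled on 24 arrays in triplicate: 140 mM NaCl for 1, 3, 8, 20, 32 and 48 h, and standard medium for 1 h and 48 h. There is no standard group at 8 h, so the salt arrays at 8 h are set against standard plants of a shorter and a longer duration. Each cell type is also its own reporter line and sort, and these cannot be told apart from the cell type. Levels are log2 expression values from ATH1 arrays, and the labels do not say that replicates came from separate cultures, so spread and p-values may be technical in part. The SD between replicates was pooled over the 8 conditions of each cell type. Its mean over tested genes was 0.29 (epidermis), 0.14 (cortex), 0.24 (endodermis) and 0.26 (stele). A lower level can mean fewer cells of a kind in the sort or less RNA per cell, and these cannot be told apart.

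As background, roots meet salt with osmotic and ionic stress responses, and the outer layers face the medium while the endodermis forms the barrier to the stele. Small heat shock proteins bind unfolding proteins, DnaJ-type proteins are partners of the Hsp70 chaperones, class III peroxidases are secreted enzymes that act on cell walls and on hydrogen peroxide, and receptor kinases and TIR-domain proteins take part in perceiving signals and pathogens. All of these classes have members among the 71 genes.

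The markers measured checked the labels only in part. On standard medium the cortex marker AT1G62510 was highest in the cortex, at 10.34, beside endodermis, stele and epidermis means of 9.62, 8.18 and 4.99. AT1G09750, also a cortex marker, was highest there as well (7.21, beside 5.67 in the endodermis), whereas the third, AT1G62500, read 2.96 to 2.98 in every cell type. GSO1, a receptor kinase needed for the endodermal barrier, was highest in the endodermis (10.32) and lowest in the epidermis (4.62). EXPA7, a root hair expansin, was not highest in the epidermis: its standard mean was 9.16 there and 9.99 in the stele. EXPA18, another root hair expansin, was also highest in the stele (9.65), beside 8.53 in the epidermis. LHW, a transcription factor of vascular development and the only stele marker measured, did not mark the stele: its standard means were 4.54 there, 4.57 in the endodermis, 4.51 in the cortex and 4.18 in the epidermis. The stele and epidermis labels therefore had no measured marker that was highest in its own layer. Markers also moved at 8 h of salt. EXPA7 changed by -2.57 (endodermis), -1.93 (stele) and -1.76 (epidermis), and AT1G62510 changed by -5.92 in the endodermis, -4.95 in the stele, -2.32 in the cortex and -1.92 in the epidermis. EXPA18 changed by -1.69 (endodermis), -1.46 (stele) and -1.15 (epidermis), the cortex marker AT1G09750 by -2.35 (endodermis) and -1.91 (cortex), and GSO1 by 0.50 in its own layer. LHW changed by 0.85 in the stele and by 0.12 to 0.69 elsewhere. The part of these marker shifts in the results below was not tested. Of 33 marker codes 7 were measured, and none of them is among the 71 genes. The other codes had no probe set naming only that gene in the annotation used, and may still be on the array. The GAPDH 3′ minus 5′ probe signal (log2), which is larger for less intact RNA, was 0.892 ± 0.208 (SD, n = 3) at 8 h of salt in the endodermis, above all standard arrays there, which averaged 0.478 ± 0.147 (n = 6). In the stele it was 0.149 ± 0.042 at 8 h of salt, overlapping the standard arrays at 0.459 ± 0.203. The same signals of actin and ubiquitin overlapped the standard arrays in every cell type. In the endodermis they were 3.636 ± 0.293 against 3.477 ± 0.153 for actin and 1.133 ± 0.104 against 1.005 ± 0.075 for ubiquitin. The part of these signals in the results below was not tested either.

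The 71 genes fell into 12 combinations of the cell type with the largest change and the one with the smallest. The most frequent were endodermis up with epidermis down (20 genes), stele up with endodermis down (17), epidermis up with endodermis down (8) and cortex up with stele down (7). A further 4 genes each were highest in change in the cortex or the stele and lowest in the epidermis. The remaining 11 genes were 3 with stele up and cortex down, 2 each with cortex up and endodermis down, endodermis up and cortex down, and epidermis up and stele down, and 1 each with endodermis up and stele down and with epidermis up and cortex down. The epidermis held 30 of the 71 on the lower side and 11 on the higher side, whereas the stele held 26 on the higher side and 16 on the lower side. The endodermis held 27 and 28. The cortex held 20 on the higher side and 10 on the lower. Among all 13356 genes the shares past 1 log2 unit, higher and lower, were 6.12% and 5.62% for the epidermis, 4.32% and 4.99% for the cortex, 4.68% and 7.19% for the endodermis, and 4.04% and 5.37% for the stele. The rule used these changes, so nothing is read from the counts. The span between the largest and the smallest change ran from 2.12 to 5.55, with a median of 2.81.

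**Figure D1:**
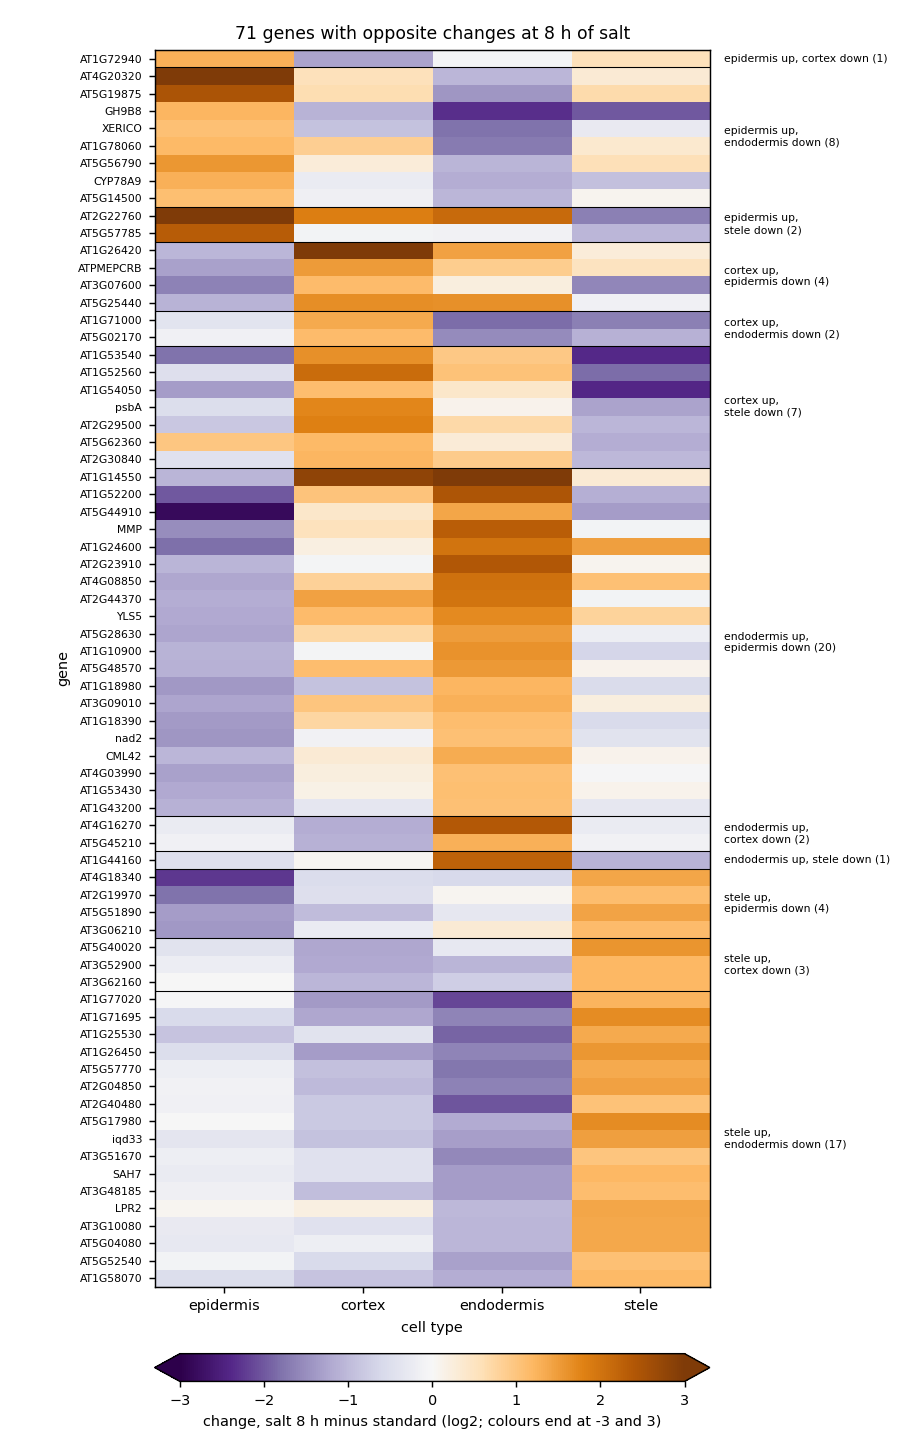
Change at 8 h of salt against standard medium (log2 colour scale, orange higher, purple lower) for the 71 genes in rows and the 4 cell types in columns. Genes are grouped by the cell types with their largest and smallest change. Of the 71 genes, 48 pass 1 log2 unit in exactly 2 cell types, 20 in 3 and 3 in all 4.

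At 8 h of salt the cell type with the largest change had the higher level of the pair in 68 of 71 genes, whereas on standard medium the other cell type had the higher level in 52, and the order turned in 49. The median difference between the 2 cell types, rising minus falling, was 2.20 at 8 h of salt and -0.92 on standard medium. A required rise in one cell type and fall in the other pushes their levels to cross, so nothing is read from these counts. The 3 salt arrays lay above all 6 standard arrays of the rising cell type in 62 genes (15.1% of all genes in those cell types), and below all 6 of the falling cell type in 54 (13%). Both held in 46 genes (0.464%). The rule used these arrays too, so this is a description.

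The largest group, 20 genes with the endodermis higher and the epidermis lower, included AT4G08850 and AT1G53430 (leucine-rich repeat receptor kinases), AT3G09010 and AT1G18390 (protein kinases), AT5G44910 (a TIR-domain protein), CML42 (a calmodulin-like calcium sensor) and AT1G14550 (a class III peroxidase). AT1G14550 had the widest span of all 71 genes. Its endodermis arrays read 10.05, 10.17 and 10.43 at 8 h of salt, against 6.57, 7.38 and 7.06 at 1 h and 4.86, 4.29 and 4.31 at 48 h on standard medium. Its epidermis arrays read 7.57, 7.20 and 7.56 at 8 h of salt, against 9.06, 9.12 and 8.62 at 1 h and 9.01, 8.29 and 7.01 at 48 h on standard medium. All endodermis salt arrays exceeded all standard arrays, while 1 epidermis array of standard medium at 48 h lay below the 3 salt arrays. The change was 4.47 in the endodermis and -1.08 in the epidermis, with a cortex change of 2.80 and a stele change of 0.31.

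AT1G52200, of the PLAC8 family of small membrane-associated proteins, gave 8.70, 8.49 and 8.44 at 8 h of salt, against 8.34, 7.20 and 7.75 at 1 h and 4.59, 4.03 and 4.70 at 48 h on standard medium in the endodermis. In the epidermis it gave 6.35, 6.59 and 7.00 at 8 h of salt, against 9.49, 9.11 and 8.99 at 1 h and 9.41, 7.80 and 7.09 at 48 h on standard medium. The salt arrays did not overlap the standard arrays in either cell type, but the margins were small. In the endodermis the highest array of standard medium at 1 h (8.34) came close to the lowest salt array (8.44). In the epidermis the lowest array of standard medium at 48 h (7.09) came close to the highest salt array (7.00). The endodermis change of AT1G52200 against standard medium at 1 h alone was 0.78, under the limit of 1. AT5G44910 had the largest fall-side change of the 71 genes in any cell type, -2.82 in the epidermis, where its arrays read 4.57, 3.99 and 4.84 at 8 h of salt, against 7.63, 7.22 and 7.72 at 1 h and 7.41, 7.00 and 6.72 at 48 h on standard medium. In the endodermis it read 5.73, 6.60 and 5.93 at 8 h of salt, against 5.66, 5.29 and 5.00 at 1 h and 4.30, 3.85 and 4.06 at 48 h on standard medium. There was again no overlap, but the lowest salt array came close to the highest array of standard medium at 1 h. Against standard medium at 1 h alone the endodermis change of AT5G44910 was 0.77, under the limit of 1. MMP, a matrix metalloproteinase, changed by 2.31 in the endodermis and -1.52 in the epidermis, and AT1G24600 by 1.97 and -1.81. The remaining 15 genes of the group changed by 1.05 to 2.40 in the endodermis and by -1.42 to -1.04 in the epidermis. Of these, nad2, a mitochondrial complex I subunit, and AT4G03990 had epidermis salt and standard arrays that overlapped widely: nad2 read 3.80, 6.07 and 2.87 at 8 h of salt, against 3.23, 7.40 and 5.79 at 1 h and 7.41, 6.74 and 3.42 at 48 h on standard medium.

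A further 17 genes had the stele higher and the endodermis lower. Among them AT1G77020, a DnaJ-type protein, read 7.43, 6.48 and 7.10 at 8 h of salt, against 5.68, 6.01 and 5.52 at 1 h and 6.09, 5.52 and 5.89 at 48 h on standard medium in the stele. In the endodermis it read 4.56, 5.12 and 4.47 at 8 h of salt, against 6.69, 6.45 and 6.55 at 1 h and 6.86, 7.30 and 7.25 at 48 h on standard medium. Neither cell type showed overlap, and the cortex went with the endodermis (-1.37). AT1G71695, another class III peroxidase, changed by 1.67 in the stele and -1.59 in the endodermis. Its stele arrays were 7.44, 7.06 and 8.16 at 8 h of salt, against 5.11, 5.64 and 4.57 at 1 h and 6.87, 6.32 and 6.80 at 48 h on standard medium, so the salt arrays lay closer to standard medium at 48 h than at 1 h. AT1G25530, an amino acid transporter family gene, changed by 1.35 and -1.91 in the stele and endodermis, and AT1G26450, with a carbohydrate-binding X8 domain, by 1.57 and -1.60. AT5G57770 changed by 1.34 and -1.75. The cortex change was negative in 16 of these 17 genes, the exception being LPR2, a multicopper oxidase of the root's response to low phosphate. The epidermis stayed within 1 log2 unit in all 17.

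The reverse of the first group, 8 genes with the epidermis higher and the endodermis lower, was led by AT4G20320, of the CTP synthase family that makes a precursor of nucleic acids and lipids. It read 7.36, 6.96 and 6.46 at 8 h of salt, against 3.99, 3.72 and 3.37 at 1 h and 4.43, 3.91 and 3.49 at 48 h on standard medium in the epidermis. Its endodermis arrays were 5.50, 5.20 and 5.48 at 8 h of salt, against 6.61, 5.95 and 6.06 at 1 h and 6.11, 6.91 and 6.95 at 48 h on standard medium. The epidermis salt arrays stood more than 2 log2 units above the standard arrays, and the endodermis salt arrays lay below all 6 standard arrays. AT5G19875 changed by 2.46 in the epidermis and -1.42 in the endodermis. GH9B8, of the endoglucanase family that acts on wall glucans, changed by 1.22 and -2.33, and was also lower in the cortex (-1.09) and stele (-2.01). XERICO, a RING-H2 protein linked to abscisic acid accumulation, changed by 1.07 in the epidermis and -1.79 in the endodermis, where it read 7.72, 8.10 and 7.79 at 8 h of salt, against 9.84, 9.44 and 9.64 at 1 h and 9.36, 9.75 and 9.91 at 48 h on standard medium. AT1G78060, a glycosyl hydrolase of the beta-xylosidase type, changed by 1.15 and -1.69.

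Small heat shock genes made up 4 of the 7 genes with the cortex higher and the stele lower: AT1G53540 and AT2G29500 (class I) and AT1G52560 and AT1G54050 (of the same HSP20 fold). AT1G52560 read 7.62, 7.58 and 7.61 at 8 h of salt, against 5.22, 5.12 and 5.01 at 1 h and 6.04, 5.71 and 5.90 at 48 h on standard medium in the cortex. In the stele it read 4.14, 5.45 and 3.99 at 8 h of salt, against 5.58, 4.44 and 7.75 at 1 h and 7.54, 5.77 and 7.17 at 48 h on standard medium. The cortex arrays were separate, whereas the stele salt arrays overlapped the standard arrays, which spread over more than 3 log2 units. AT1G53540 showed the same arrangement, with 8.22, 8.06 and 7.92 at 8 h of salt, against 5.81, 5.90 and 5.75 at 1 h and 7.19, 7.00 and 6.95 at 48 h on standard medium in the cortex. Its stele arrays read 4.75, 6.16 and 5.25 at 8 h of salt, against 6.35, 5.43 and 8.85 at 1 h and 9.55, 7.38 and 9.00 at 48 h on standard medium, again with overlap. Standard medium at 1 h replicate 3 in the stele, whose mean correlation with its group was under 0.95, was the highest of its 3 arrays for these 4 genes. AT1G54050 changed by 1.12 in the cortex and -2.40 in the stele, and AT2G29500 by 1.82 and -1.04. psbA, the plastid-encoded D1 protein of photosystem II, changed by 1.75 and -1.27.

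The smaller groups were each led by 1 gene. AT2G22760, a bHLH transcription factor, was higher in 3 cell types and lower only in the stele: the epidermis changed by 3.00, the endodermis by 2.12, the cortex by 1.84 and the stele by -1.65. AT1G26420, of the berberine bridge enzyme family, read 6.47, 6.25 and 6.54 at 8 h of salt, against 2.83, 3.12 and 2.78 at 1 h and 3.32, 3.28 and 2.82 at 48 h on standard medium in the cortex. In the epidermis it read 3.52, 3.35 and 3.79 at 8 h of salt, against 5.31, 4.44 and 4.28 at 1 h and 4.80, 4.54 and 4.19 at 48 h on standard medium, below the standard arrays. AT4G18340, a glycosyl hydrolase of the beta-1,3-glucanase type, changed by 1.40 in the stele and -2.27 in the epidermis. AT4G16270, a class III peroxidase, changed by 2.37 in the endodermis and -1.16 in the cortex. Of 2 more DnaJ-type genes, AT1G44160 had an endodermis change of 2.23 and a stele change of -1.10, and AT1G71000 changed by 1.34 in the cortex and -1.84 in the endodermis. AT1G72940, a TIR-NBS protein, changed by 1.28 in the epidermis and -1.28 in the cortex.

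**Figure D2:**
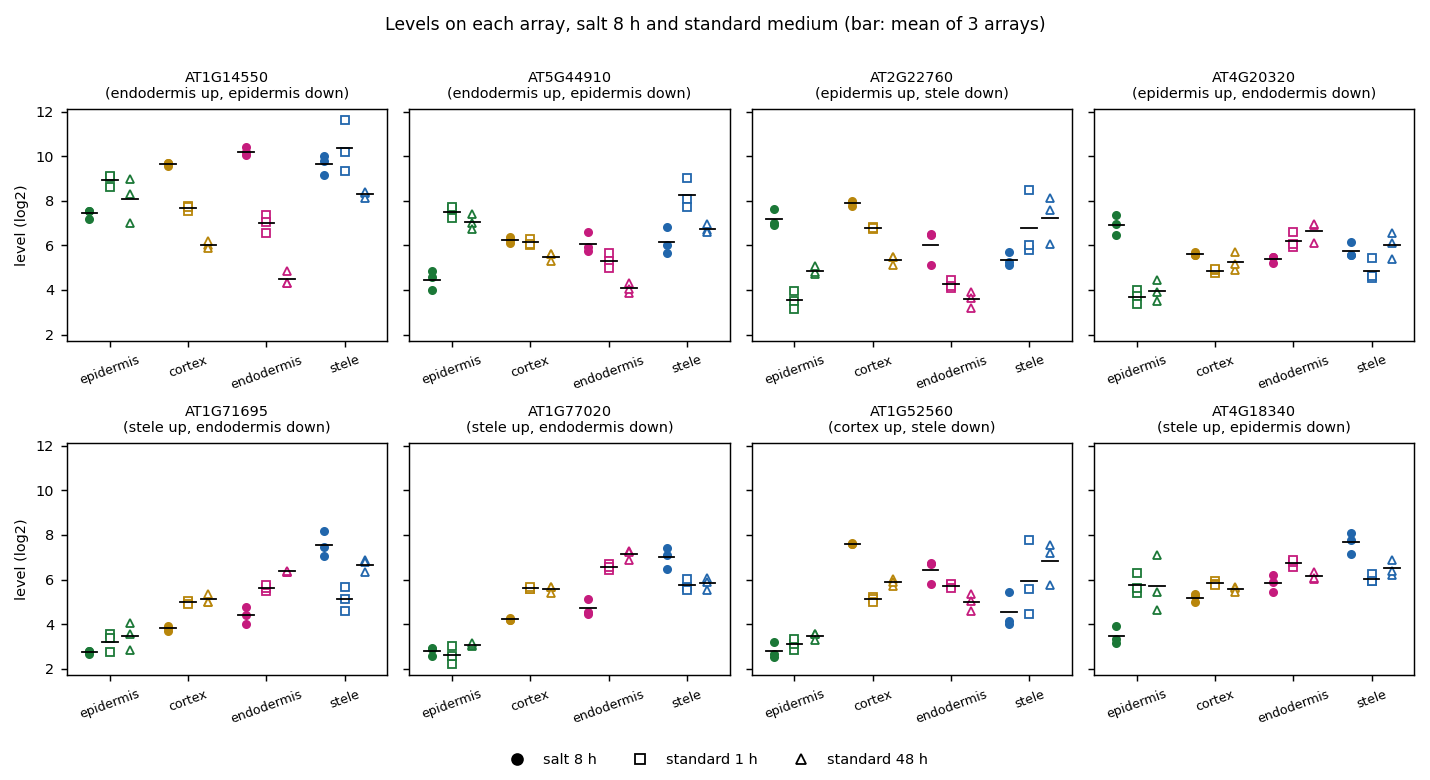
Level (log2) on each array for 8 of the genes with the widest spans in their groups. Within each cell type, filled circles are salt at 8 h, open squares standard medium at 1 h and open triangles standard medium at 48 h, with a bar at the mean of 3 arrays. AT5G44910 and AT1G77020 show no overlap between salt and standard arrays in the named cell types, while the stele arrays of AT1G52560 and AT2G22760 overlap or spread widely. In the endodermis the lowest salt array of AT5G44910 lies close to its highest array of standard medium at 1 h.

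Some members sat close to the limit of 1 log2 unit. Just inside were AT3G51670, a SEC14-type lipid transfer protein, with 1.00 in the stele and -1.56 in the endodermis, and LPR2 with 1.40 and -1.03. Just outside were AT4G32860, with 0.99 in the stele and -1.77 in the endodermis, and AT3G59710, with 0.99 in the epidermis and -1.61 in the stele. There were 25 genes whose smaller side lay between 1 and 1.1 and 38 between 0.9 and 1. At a limit of 1.5 only 8 genes qualified. Low levels touch part of the list: in 31 of the 71 genes either the rising type's standard mean or the falling type's salt mean was under 4.51, the lowest array median, and in 40 neither was.

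The choice of standard group changed the list more than any single array did. With standard medium at 1 h alone 50 of the 71 genes were still picked, with standard medium at 48 h alone 44, and 29 were picked with each of them. Leaving out each of the 36 arrays in turn kept 33 genes throughout, and the count picked ranged from 64 to 83. Without stele salt 8 h replicate 1, 8 of the 71 were lost, and without stele standard 1 h replicate 3, 7 were lost. Picked with each standard group and with every array left out were 24 genes.

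The choice did not use the salt arrays at 1, 3, 20, 32 and 48 h (60 arrays). Changes among them were tested with limma over 7281 genes with a group mean of at least 5, which include 70 of the 71. A gene was called at a Benjamini-Hochberg adjusted p under 0.05 with a change of at least 1 log2 unit. All 32 groups shared a single estimate of the spread per gene. The SEs and p-values therefore do not measure the spread within the cell type they are given for. The change since 1 h of salt differed among cell types for 29 of 70 genes at 3 h (41.4%), against 18.5% of all genes. At 20 h it differed for 43 (61.4%, against 31% of all genes), at 32 h for 31 (44.3%, against 27.9%) and at 48 h for 45 (64.3%, against 25.4%).

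Within each cell type, the genes called at 1 or more of the 4 later salt times relative to 1 h numbered 36 in the endodermis (51.4%, against 25.9% of all genes), 32 in the stele (45.7%, against 14.1%), 30 in the cortex (42.9%, against 23.1%) and 23 in the epidermis (32.9%, against 24.6%). The epidermis count was lower when only its own arrays were fitted, as given in the last section. No share of all genes was counted for that fit. At 20 h, tested genes were also counted in the cell type of their largest 8 h change. There 6 of 13 rose and 1 fell in the cortex (7.81% and 5.73% of all genes), 11 of 22 rose and 2 fell in the endodermis (12.5% and 5.48%), 4 of 24 rose and none fell in the stele (4% and 3.21%), and 2 of 11 rose and 2 fell in the epidermis (3.1% and 6.51%). In the cell type of the smallest 8 h change, none rose and 6 of 10 fell in the stele, none rose and 3 of 27 fell in the endodermis, 1 rose and 4 of 27 fell in the epidermis, and 1 rose and 1 of 6 fell in the cortex. These directions did not hold at every time. In the endodermis 4 of the 22 rose and 6 fell at 32 h (11% and 6.29% of all genes), with a median change of 0.89 at 20 h and -0.08 at 32 h. In the stele, of the 10, 3 fell at 3 h (2.61%), 2 at 32 h (2.83%) and 2 at 48 h (3.8%). In the epidermis 5 of the 27 rose and 5 fell at 48 h (7.46% and 10.8%).

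The more direct comparison asked whether the rising cell type gained on the falling one between 1 h of salt and 3 h or 20 h. It was not run at 32 h or 48 h. At 3 h 15 of 70 genes gained and none lost, against 2.94% and 2.57% of genes over the same pairs of cell types. At 20 h 29 gained and 2 lost, against 5.76% and 5.72%. The losses were AT5G19875 (-1.84 ± 0.43 SE, adjusted p = 0.0011) and AT5G40020, a thaumatin-family gene (-1.61 ± 0.47 SE, adjusted p = 0.011). The reference is 1 h of salt, so a gene already opposite at 1 h can read as uncalled or as a loss. Against standard medium, AT5G19875 changed by 3.13 (epidermis) and -1.21 (endodermis) at 1 h, and by 1.65 and -0.86 at 20 h. AT5G40020 changed by 0.64 (stele) and -2.08 (cortex) at 1 h, and by 0.35 and -0.76 at 20 h. By group, 5 of 7 cortex over stele genes gained at 20 h (5.56% of all genes), 3 of 4 cortex over epidermis (6.11%), 3 of 4 stele over epidermis (9.02%), 6 of 19 endodermis over epidermis (7.33%), 4 of 17 stele over endodermis (5.81%) and 1 of 8 epidermis over endodermis (2.13%). Against standard medium, the same pair was opposite by the rule in 6 of the 71 genes at 1 h and 11 at 3 h. It was opposite in 26 at 20 h, 7 at 32 h and 17 at 48 h. In any pair, 0.172% of all genes met the rule at 1 h and 0.397% at 3 h. The shares were 0.457% at 20 h, 0.292% at 32 h and 0.352% at 48 h. The choice used the same standard arrays, so these counts are a description.

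At 20 h the largest gains were those of the small heat shock genes AT1G53540 and AT1G54050 in the cortex over the stele, with values given further on, and of AT1G26420. AT1G26420 gained 3.59 ± 0.47 (SE, adjusted p = 2.3e-08) in the cortex over the epidermis at 20 h. Its cortex arrays read 3.12, 3.01 and 3.07 at 1 h of salt, 4.33, 4.50 and 4.42 at 3 h and 5.84, 6.05 and 5.84 at 20 h, while its epidermis arrays read 2.98, 4.83 and 3.64 at 1 h, 3.98, 5.78 and 3.50 at 3 h and 3.03, 3.28 and 2.91 at 20 h. ATPMEPCRB, a pectin methylesterase that acts on wall pectin, gained 3.39 ± 0.54 (SE, adjusted p = 2.3e-06) at 3 h and 3.34 ± 0.54 (SE, adjusted p = 3.8e-06) at 20 h. In the cortex it rose by 3.91 ± 0.38 (SE, adjusted p = 2.1e-13) at 20 h, with 3.07, 2.81 and 2.90 at 1 h and 6.79, 6.99 and 6.73 at 20 h. Its cortex level at 1 h of salt was below that on standard medium, where the lowest array read 4.66. AT2G22760 gained 3.94 ± 0.65 (SE, adjusted p = 1.8e-05) in the epidermis over the stele at 3 h. Epidermis arrays of AT2G22760 read 5.05, 4.85 and 4.17 at 1 h and 6.65, 7.99 and 8.10 at 3 h, and stele arrays 7.99, 7.32 and 7.55 at 1 h and 6.81, 6.36 and 6.54 at 3 h, so the order of the 2 cell types turned. That gain, ATPMEPCRB at 3 h and AT1G24600, described further on, were the 3 largest at that time. AT5G28630, a glycine-rich protein gene, gained 2.43 ± 0.35 (SE, adjusted p = 3.3e-07) in the endodermis over the epidermis at 20 h. This was the largest gain of that pair of cell types, and 10 genes of other pairs gained more.

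**Figure D3:**
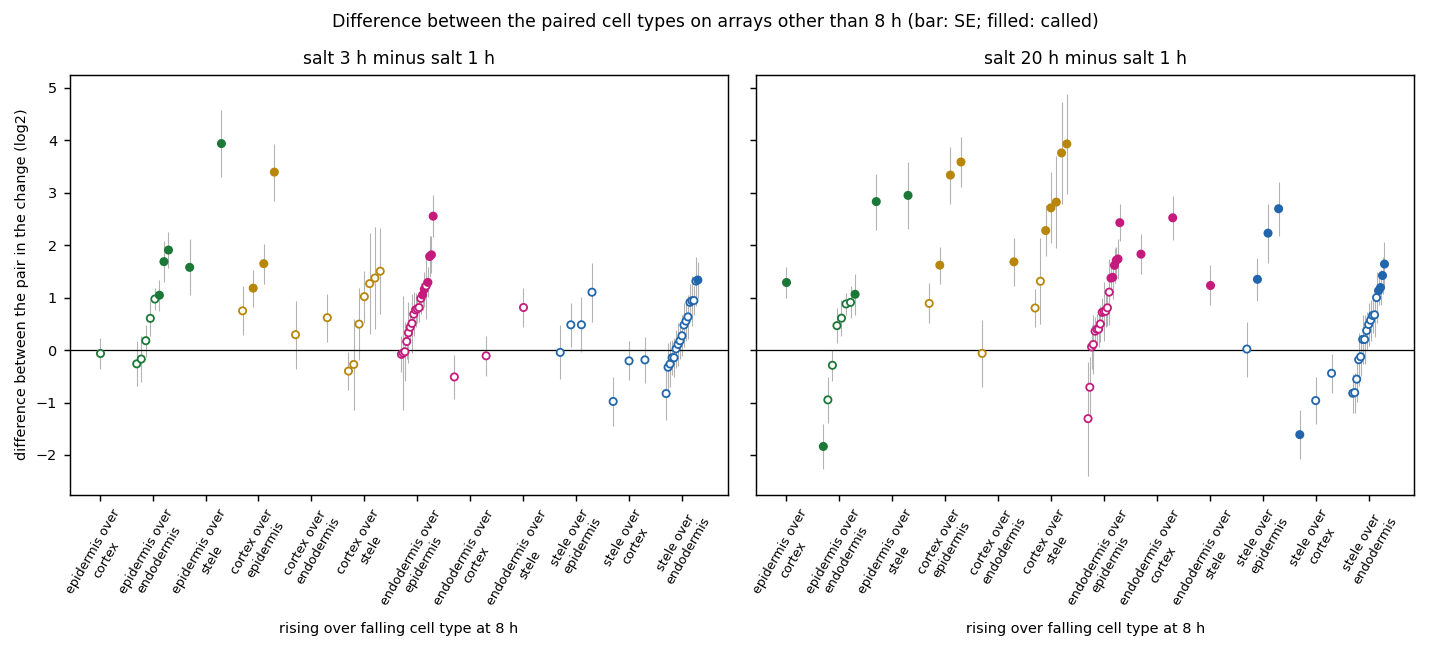
Difference between the rising and the falling cell type (log2, y axis) in the change from 1 h of salt to 3 h (left) or 20 h (right), for 70 genes grouped by the pair of cell types that named them at 8 h. Bars are standard errors and filled points are called. At 20 h 29 points are called above 0 and 2 below.

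AT1G24600 was higher in the endodermis at the early salt times than at the later ones. Endodermis arrays read 7.58, 8.80 and 8.16 at 1 h, 8.48, 8.33 and 8.35 at 3 h, 8.15, 8.35 and 8.07 at 8 h and 6.15, 6.39 and 6.22 at 20 h. By 20 h they lay within the range of the standard arrays, 5.75 to 6.50. In the epidermis its change since 1 h was -2.35 ± 0.29 (SE, adjusted p = 2.6e-09) at 3 h and -3.83 ± 0.29 (SE, adjusted p = 3.6e-18) at 32 h. The difference between endodermis and epidermis at 3 h was 2.55 ± 0.40 (SE, adjusted p = 5.3e-06). The endodermis also fell since 1 h, with -2.15 ± 0.29 (SE, adjusted p = 3.4e-09) at 32 h. GH9B8 fell in the endodermis at all 4 later salt times, with changes of -3.03 ± 0.27 (SE, adjusted p = 3.7e-14) at 3 h and -2.94 ± 0.27 (SE, adjusted p = 2.5e-14) at 48 h. Its gain in the epidermis over the endodermis was 1.69 ± 0.39 (SE, adjusted p = 0.0019) at 3 h, although it also fell in the epidermis then (-1.34 ± 0.27 SE, adjusted p = 0.00012).

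All 4 small heat shock genes fell in the stele at 20 h of salt relative to 1 h. AT1G52560 fell in the stele, with -3.91 ± 0.62 (SE, adjusted p = 9.3e-07) at 20 h. Stele arrays of AT1G52560 were 8.33, 7.86 and 7.95 at 1 h of salt, 5.42, 5.53 and 5.35 at 3 h and 3.59, 5.02 and 3.81 at 20 h. In the cortex it was highest at 1 h of salt (9.23, 9.28 and 9.29), fell at 3 h (change -2.89 ± 0.62 SE, adjusted p = 0.00021), and read 8.11, 8.30 and 8.12 at 20 h. Endodermis arrays disagreed at 20 h (8.82, 9.33 and 4.79). In the stele AT1G53540 fell by 3 h too (change -2.34 ± 0.68 SE, adjusted p = 0.012), with AT1G52560 at -2.61 ± 0.62 (SE, adjusted p = 0.0016), and the changes at 20 h were -2.43 ± 0.68 (SE, adjusted p = 0.0043) for AT1G53540, -2.15 ± 0.69 (SE, adjusted p = 0.014) for AT1G54050 and -1.91 ± 0.48 (SE, adjusted p = 0.0015) for AT2G29500. At 32 h these 3 genes were not called in the stele, with changes of -0.07 ± 0.68 (SE, adjusted p = 0.96), -0.17 ± 0.69 (SE, adjusted p = 0.9) and -0.43 ± 0.48 (SE, adjusted p = 0.57) in the same order, while AT1G52560 was still lower (-2.16 ± 0.62 SE, adjusted p = 0.0074). In the cortex the change at 20 h relative to 1 h was -1.09 for AT1G52560, the single negative one, and 0.80 (AT2G29500) to 1.61 (AT1G54050) for the other 3, and none of these 4 cortex changes was called. The gain in the cortex over the stele at 20 h was 2.82 ± 0.87 (SE, adjusted p = 0.017) for AT1G52560, 3.93 ± 0.96 (SE, adjusted p = 0.0025) for AT1G53540, 3.76 ± 0.98 (SE, adjusted p = 0.0045) for AT1G54050 and 2.71 ± 0.68 (SE, adjusted p = 0.0031) for AT2G29500. None of the 7 genes of this group had a called gain in the cortex over the stele at 3 h (4.7% of all genes). In the epidermis AT1G54050 and AT1G53540 rose by 48 h (2.71 ± 0.69 SE, adjusted p = 0.00067, and 1.97 ± 0.68 SE, adjusted p = 0.011).

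**Figure D4:**
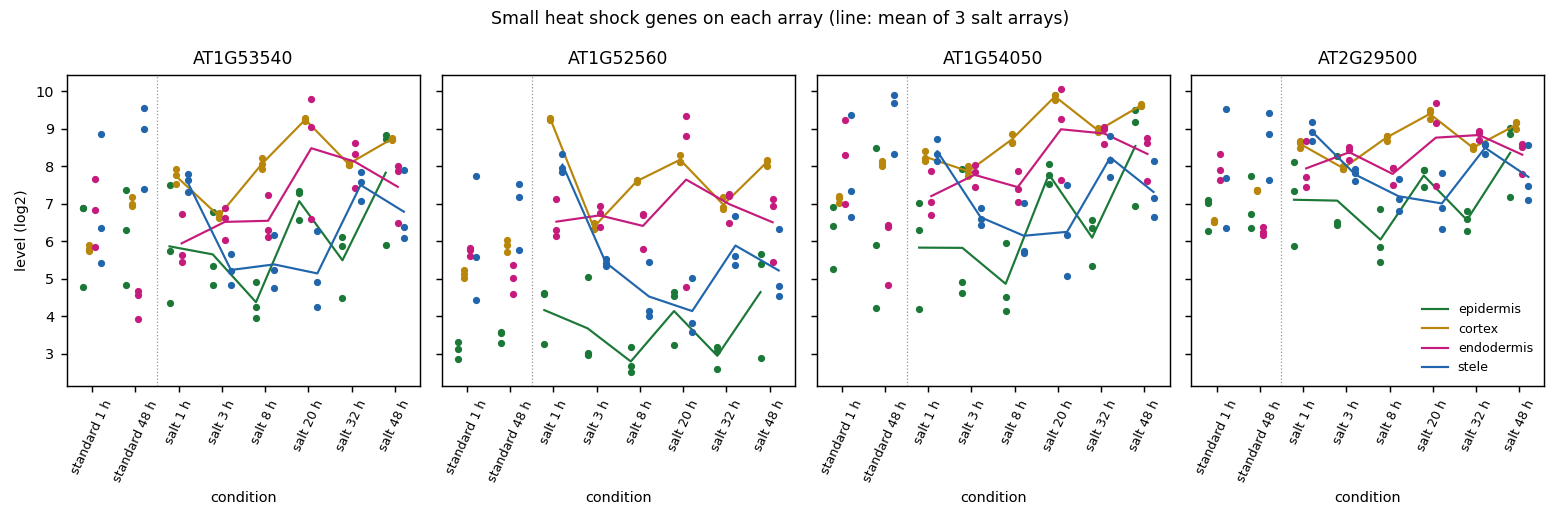
Level (log2) on each array of 4 small heat shock genes across standard medium at 1 h and 48 h and salt at 1, 3, 8, 20, 32 and 48 h (x axis), coloured by cell type, with lines through the means of 3 salt arrays. Cortex arrays of AT1G52560 are higher at 1 h of salt than at 3 h, its stele arrays are lower at 3 and 20 h than at 1 h, and standard stele arrays of all 4 genes spread widely.

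Other stele and endodermis members changed among the salt times too. AT1G71000 fell in the stele, with -2.34 ± 0.46 (SE, adjusted p = 0.00013) at 3 h and -3.18 ± 0.46 (SE, adjusted p = 8.6e-08) at 48 h. AT2G19970, of the CAP/PR-1 family of secreted proteins, rose in the stele by 3.12 ± 0.36 (SE, adjusted p = 2.7e-10) at 48 h, and AT3G10080, a germin-like protein gene, by 2.06 ± 0.23 (SE, adjusted p = 1.4e-10) at 32 h. In the epidermis AT3G06210, an ARM-repeat protein gene, fell at 48 h (change -3.11 ± 0.29 SE, adjusted p = 4.1e-14) and AT5G57785 rose by 2.70 ± 0.38 (SE, adjusted p = 3.2e-08) at 20 h. AT2G44370, a C1-domain protein gene, rose in the cortex at 20 h by 2.81 ± 0.28 (SE, adjusted p = 2.1e-13) and in the endodermis by 2.41 ± 0.28 (SE, adjusted p = 4.1e-11). AT5G62360, a pectin methylesterase inhibitor gene, fell in the stele at 20 h, with -2.40 ± 0.35 (SE, adjusted p = 1.3e-07), and rose in the endodermis at 32 h by 2.31 ± 0.35 (SE, adjusted p = 9.5e-08).

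The 2 standard groups also differed from each other in several members. The rule subtracted these same arrays, so the differences are not independent of the choice and nothing is read from the counts. Calls are those of the limma test at the limits above, and single genes are given as differences without p-values. Between 48 h and 1 h on standard medium, 23 of 70 genes were called in the stele (32.9%, against 6.28% of all genes), 13 in the endodermis (18.6%, against 2.29%), 8 in the cortex (11.4%, against 2.36%) and 1 in the epidermis (1.43%, against 1.87%). In the stele 11 were higher and 12 lower at 48 h (3.36% and 2.91% of all genes), and in the endodermis 1 was higher and 12 lower (0.824% and 1.47%). The differences in the endodermis, 48 h minus 1 h, were -3.32 for AT1G52200, -2.51 for AT1G14550 and -2.20 for AT2G44370. For the small heat shock gene AT1G53540 it was -2.39. In the cortex AT1G14550 differed by -1.64, and the gene called in the epidermis was AT5G51890, a class III peroxidase (1.25).

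In the stele the largest positive differences on standard medium among called genes were AT5G40020 (2.26), AT1G71000 (2.20) and AT5G51890 (2.16). AT5G40020 read 9.48, 9.62 and 9.84 at 8 h of salt, against 7.35, 7.69 and 5.78 at 1 h and 9.59, 8.54 and 9.46 at 48 h on standard medium in the stele, so its salt arrays overlapped standard medium at 48 h. AT5G51890 changed in the stele by 1.42 at 8 h of salt, with 11.26, 11.32 and 11.87 at 8 h of salt, against 9.16, 9.69 and 8.10 at 1 h and 11.52, 10.56 and 11.36 at 48 h on standard medium. Again the salt and 48 h standard arrays overlapped. In the cortex the difference of AT4G16270 between standard groups was -1.59, larger in size than its 8 h change of -1.16 there.

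**Figure D5:**
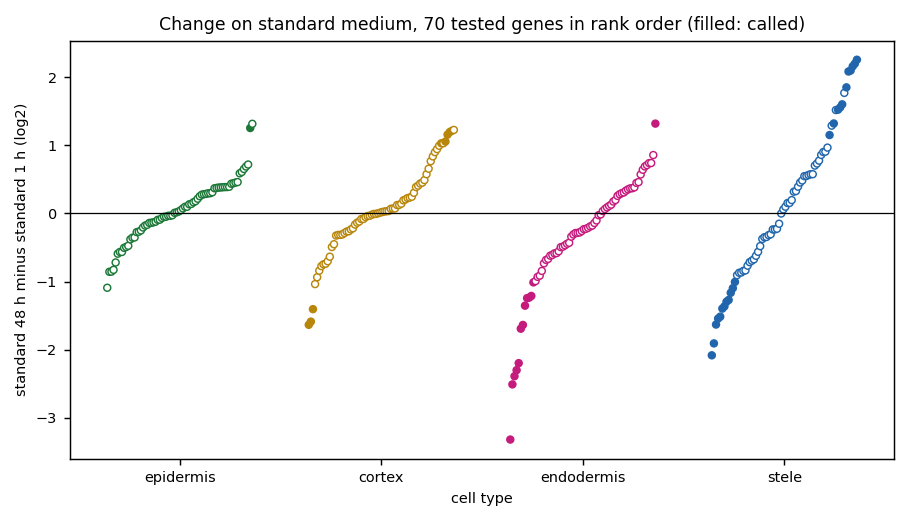
Change on standard medium between 48 h and 1 h (log2, y axis) for the 70 tested genes, in rank order within each cell type (x axis), with called genes filled. The stele has 23 called genes on both sides of 0, the endodermis 13, of which 12 lie below 0, the cortex 8 and the epidermis 1.

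Heat shock genes as a family, listed after values had been seen, numbered 15 measured of 28, of which 8 are among the 71. These 8 were picked by the same changes, so the counts below restate the rule in part and nothing is read from them. At 8 h of salt 8 of the 15 were at least 1 log2 unit higher and 1 lower in the cortex (4.32% and 4.99% of all genes), 5 higher and 2 lower in the endodermis (4.68% and 7.19%), none higher and 5 lower in the epidermis (6.12% and 5.62%), and 1 higher and 7 lower in the stele (4.04% and 5.37%). The member AT5G48570, an FKBP-type peptidyl-prolyl isomerase, changed by 1.54 in the endodermis and -1.12 in the epidermis. Beyond the 71 genes, AT5G37670 changed by 3.28 in the cortex and -0.49 in the stele. Of 73 class III peroxidases, also listed after values had been seen, 55 were measured, 40 passed the filter on low values and 4 are among the 71. In the epidermis 1 of the 55 was at least 1 log2 unit higher and 18 lower (6.12% and 5.62% of all genes), in the cortex 11 higher and 9 lower (4.32% and 4.99%), in the endodermis 13 higher and 13 lower (4.68% and 7.19%), and in the stele 13 higher and 13 lower (4.04% and 5.37%). PRX52 changed by 7.57 in the stele and 6.46 in the endodermis but only 0.59 in the epidermis, so its direction did not oppose. Of 85 codes on 7 lists of salt, hormone, wall, water and ion transport genes, 2 were measured, COR15A and HCT, and neither is among the 71. The other codes had no probe set naming only that gene in the annotation used, so their response is not known here. COR15A, a cold- and drought-induced chloroplast protein, changed by 2.70 in the cortex and by -0.09 to 0.23 in the other cell types.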

How the data were processed

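Per the labels' protocols, RNA of sorted protoplasts was amplified in 1 cycle and hybridised to ATH1 arrays. The deposited values are log2 expression values per probe set; Affymetrix Expression Console and GCRMA are named in the submitters' processing notes without versions. The files give no counts or detection calls, so the number of arrays limits the precision. Of 22810 probe sets, 13513 name exactly 1 gene in the platform annotation of 2016, giving 13356 genes, 13286 of them matched to TAIR10.1, which was used for names only. A further 503 probe sets name several genes and 8730 are not listed in that annotation. Genes measured only by such probe sets were left out, although they may be on the array. The 32 group means over 96 arrays (64 residual degrees of freedom) went into a linear model (limma 3.58.1 in R 4.3.3), adjusted by Benjamini-Hochberg over 7281 genes. The script was tested on simulated data: of 100 genes changed by 1.5 log2 units in the stele at 20 h of salt, 97% were recovered among 6224 genes. The simulated spread of a gene was equal in all groups, and only genes with higher mean levels were changed. Recovery of members at low levels was therefore not simulated. The genes and lists were chosen with earlier results of these data known. Named genes are the 5 widest spans per group (1 in groups under 5), members on lists, and the 3 largest called changes per test; others were chosen after their values were seen. Alternatives were other normalizations, filters and references, a replicate block and each array left out. Families were assigned by gene code.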

Additional observations from a re-analysis of the deposited data

Results flagged for a closer look

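The change since 1 h of salt differed among the 4 cell types by a moderated F test (limma, 3 degrees of freedom), and the genes here had the widest range between the cell types at each time. At 3 h the range was 3.94 log2 units for AT2G22760, 3.39 for ATPMEPCRB and 3.05 for AT1G52560. At 20 h it was 5.03 for AT1G52560, 4.97 for AT1G53540 and 4.10 for AT1G54050, and endodermis arrays of AT1G52560 disagreed at that time. At 32 h it was 3.60 for AT2G22760, 3.23 for AT5G62360 and 3.15 for AT1G24600. At 48 h it was 3.80 for AT1G54050, 3.54 for AT2G19970 and 3.31 for AT1G52560. The cause of these differences was not tested.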

How the results depend on the processing

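Of 114 values from settings other than leaving out an array, 104 lay within 1.5 times the main count. At a limit of 1.5 log2 units 8 genes were picked. With no minimum change, the counts were 35 (epidermis) and 46 (cortex) for salt times, and 2 (epidermis), 20 (endodermis) and 35 (stele) on standard medium. Fitting a cell type's own arrays alone gave 15 for salt times and 0 on standard medium in the epidermis, and quantile normalization gave 2 there. Leaving out together the 3 arrays with a mean correlation under 0.95 (epidermis standard 48 h replicates 1 and 3, stele standard 1 h replicate 3), chosen after seeing the data, gave 0 there, 67 picked genes and 29 gains at 20 h. Leaving out 1 array at a time gave 64 to 83 picked genes; standard medium counts of 0 to 3 (epidermis), 5 to 10 (cortex), 10 to 14 (endodermis) and 22 to 29 (stele); salt time counts of 19 to 26, 30 to 33, 31 to 41 and 29 to 36 in the same order; differences among cell types of 22 to 34 at 3 h, 41 to 46 at 20 h, 29 to 38 at 32 h and 42 to 50 at 48 h; and gains of 11 to 18 at 3 h and 27 to 33 at 20 h. The cortex count on standard medium was 5 without standard 1 h replicate 2 or standard 48 h replicate 1. With a replicate block the gains were 16 at 3 h and 29 at 20 h. Same-numbered arrays did not deviate together on average (mean correlation -0.02 in the cortex to 0.04 in the epidermis). Single pairs of arrays ranged from -0.469 to 0.613 in the epidermis. The mean therefore cannot show whether some groups shared a batch, which was not tested. The cause of each move was not tested. Levels near the lowest array median have an unknown background.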
